A study of Homo sapiens with 12 samples.

Results

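Expression of 10 genes of branched-chain amino acid, serine and one-carbon metabolism was followed across 12 RNA-seq libraries of human neural cells. The genes were BCAT1, PHGDH, PSAT1, PSPH, SHMT1, SHMT2, MTHFD2, MTHFD1L, ASNS and CHAC1, taken by name from 58302 Ensembl genes. The genes were selected on their levels in these 12 samples, which were already known, so their differences between groups are given as a description, with no p-value. P-values are given only for 149 other genes of 9 related pathway lists. All cells came from H1, an established human ESC line. WT cells were unmodified H1. In dKO cells (H1-JMJD3-/-/UTX-/Y), the catalytic part of the JmjC domain had been deleted from the genes of both H3K27 demethylases, JMJD3 (KDM6B) and then UTX (KDM6A), by genome editing and selection of clones. Both genotypes were turned into neural progenitor cells (NPCs) with the SMAD pathway inhibitors SB431542 and dorsomorphin and were grown as spheres with the growth factors bFGF and EGF. NPCs were sampled at passage 2, a passage given in the study's text and not in the labels, and at passage 4. The D28 samples were NPCs kept for 28 days without those growth factors and with BDNF, GDNF and cAMP. Each group held 2 samples, and the sources used here do not say that they were separate cultures, so p-values measure the spread between these samples only.

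BCAT1 is the cytosolic aminotransferase that moves the amino group of leucine, isoleucine and valine to α-ketoglutarate and so makes glutamate. PHGDH, PSAT1 and PSPH are the consecutive enzymes that make serine from a glycolytic intermediate, and the PSAT1 step uses glutamate as its amino donor. SHMT1 in the cytosol and SHMT2 in mitochondria split serine into glycine and a one-carbon unit carried on folate. In mitochondria, MTHFD2 oxidises that unit and MTHFD1L releases it as formate, which the cytosol uses to make purines and thymidylate. ASNS makes asparagine, and CHAC1 degrades glutathione. Several of these genes are textbook targets of ATF4, the transcription factor of the integrated stress response.

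Libraries held 756942 to 10601172 counts, with the lowest totals in the NPCs at passage 2, where 3 counts equal between 2.085 and 3.96 CPM (counts scaled to the library total). Reads are not independent molecules, so such floors cover counting error only. Levels are given as CPM with TMM-scaled library sizes. Of the 10 genes, 8 averaged 20 counts or more across samples and entered the edgeR fit of 13454 genes. ASNS with a mean of 6.25 counts and CHAC1 with 16.3 did not. The replicates differed by a chi-square of 1.55 to 3.30 per degree of freedom in 5 groups and by 14.0 in dKO-D28, whose libraries stood apart from each other. PHGDH, SHMT2 and MTHFD1L were each higher in dKO-D28 sample 2, by 0.55, 0.49 and 0.74 on the log2 scale. A D28 difference between genotypes that lost its call or moved by over 1.5 times without 1 of these libraries is therefore also given without it. KDM6A was between 43.7 and 60.3 CPM in WT and between 27.3 and 58.4 CPM in dKO samples, and KDM6B between 115 and 202 CPM in WT and between 144 and 185 CPM in dKO samples. Counts per whole gene do not show the deleted part, so they do not check the labels.

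Because ATF4 target sites can be read from sequence, the RefSeq promoter windows (GRCh38.p14, from 250 bases before to 50 bases after a transcription start) were searched on both strands for the composite element that ATF4 shares with C/EBP factors, TGATGNAA. Windows were at hand for 8 of the 10 genes, all but PSPH and SHMT2, and 4 of the 8 held the element, against 4.46% of 27305 genes. A gene with more windows has more chances of a match. By window, 6 of 16 held the element, against 3.62% of 35116, and overlapping windows of MTHFD1L hold the same site. The match is given in capitals with flanking bases, and these are shown because BCAT1 and MTHFD1L carry the same match while that of ASNS differs in a base and CHAC1 has the match on the opposite strand.
BCAT1, chr12:24949131-24949160, minus strand: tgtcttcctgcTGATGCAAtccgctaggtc
MTHFD1L, chr6:150866346-150866375, plus strand: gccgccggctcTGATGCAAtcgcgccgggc
ASNS, chr7:97872458-97872487, minus strand: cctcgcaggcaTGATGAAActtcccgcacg
CHAC1, chr15:40953251-40953280, plus strand: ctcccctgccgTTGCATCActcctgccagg
In BCAT1 the element began 48 bases before a start. An E-box, CACGTG, stood in windows of BCAT1 and MTHFD1L and in 8.77% of all genes. A match of letters is a description and not a bound site, and the absence of one in the windows of PHGDH, PSAT1, SHMT1 and MTHFD2 says only that these letters are not there.

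BCAT1 (ENSG00000060982, GRCh38 chr12:24810024-24949101, minus strand) showed the widest range among the genes. It was at 332.5 and 285 CPM in WT NPCs at passage 2 and at 292.5 and 274 CPM in dKO NPCs at passage 2, so both genotypes began at a like level. By passage 4, BCAT1 was at 30.7 and 31.2 CPM in WT NPCs and at 138 and 168 CPM in dKO NPCs. At D28 it was at 25.6 and 26.9 CPM in WT-D28 and at 275 and 315 CPM in dKO-D28. No WT and dKO sample overlapped at either later point, and no dKO sample was below 138 CPM. In WT cells the mean was 9.95-fold lower at passage 4 and 11.7-fold lower at D28 than at passage 2 (log2 -3.32 ± 0.14 and -3.55 ± 0.14, SE from the fit, n = 2 per group). In dKO cells BCAT1 was 1.85-fold lower at passage 4 (log2 -0.89 ± 0.12) and at nearly the same level at D28 as at passage 2 (0.06 ± 0.12).

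Between genotypes, the log2 difference of BCAT1 (dKO over WT) was -0.12 ± 0.13 at passage 2, 2.31 ± 0.14 at passage 4 and 3.49 ± 0.13 at D28. It was 3.40 or 3.60 at D28 when 1 or the other dKO-D28 library was left out. The WT and dKO time courses differed by 2.43 ± 0.19 up to passage 4 and by 3.61 ± 0.18 up to D28 on the log2 scale. In the order of mean levels, WT NPCs at passage 2 (309 ± 33.4 CPM, SD), dKO-D28 (295 ± 28.1) and dKO NPCs at passage 2 (283 ± 12.9) did not separate beyond their spread. Below them came dKO NPCs at passage 4 (153 ± 21.0 CPM), then WT NPCs at passage 4 (31.0 ± 0.37) and WT-D28 (26.2 ± 0.95).

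The serine synthesis enzymes did not move as a block. PHGDH (ENSG00000092621), the first enzyme, was at 124 and 136 CPM in WT and at 135 and 119 CPM in dKO NPCs at passage 2. At D28 it was at 70.9 and 69.3 CPM in WT and at 148 and 218 CPM in dKO cells, with every WT sample below and every dKO sample above its own passage 2 level. The log2 difference between genotypes was -0.04 ± 0.19 at passage 2, 0.48 ± 0.16 at passage 4 and 1.39 ± 0.15 at D28. The D28 value was 1.09 without dKO-D28 sample 2 and 1.65 without sample 1.

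PSAT1 (ENSG00000135069), the aminotransferase of the pathway, differed in direction at passage 4. It was at 232 and 224 CPM in WT NPCs at passage 4, the highest of the 6 groups, against 110.5 and 115 CPM in dKO NPCs at passage 4. At passage 2 it was at 159 and 147 CPM in WT and at 131 and 131 CPM in dKO cells. At D28 it was at 82.5 and 80.1 CPM in WT and at 123 and 159 CPM in dKO cells. The sign of the genotype difference thus turned between the 2 later points, from -1.01 ± 0.12 at passage 4 to 0.80 ± 0.12 at D28 on the log2 scale (0.98 without dKO-D28 sample 1 and 0.60 without sample 2). With offsets for GC and length in the fit, the passage 4 value was -0.56 and the D28 value 0.47, so the sign held while the size was smaller. At passage 4 the other 7 fitted genes were not lower in dKO NPCs in the main fit. SHMT2 at 0.0068 ± 0.15 and PSPH at 0.044 ± 0.19 were near 0, and with those offsets they were at -0.14 and -0.021.

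PSPH (ENSG00000146733), the last enzyme, was level. Its 12 values lay between 18.4 and 28.5 CPM, samples of WT and dKO overlapped at every stage, and no log2 difference between genotypes exceeded 0.22 (SE 0.18). These values rest on 16 to 242 counts per sample. The D28 difference was 0.32 or 0.13 without dKO-D28 sample 1 or sample 2. A difference smaller than 2 SE, with an SE of 0.27 at passage 2, could not be told from 0 at this depth.

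Of the folate enzymes, SHMT1 (ENSG00000176974), the cytosolic one, had the largest genotype difference at D28, while at passage 4 it was 0.64 ± 0.21 on the log2 scale, below the values of MTHFD2 and MTHFD1L. It was at 25.7 and 30.8 CPM in WT NPCs at passage 2, at 18.8 and 17.8 CPM in WT NPCs at passage 4 and at 8.29 and 12.02 CPM in WT-D28. In dKO cells it was at 33.2 and 40.4 CPM, then 29.0 and 27.8 CPM at passage 4 and 32.9 and 44.6 CPM at D28. The genotypes were 1.93 ± 0.20 apart at D28 on the log2 scale, with 2.135 without dKO-D28 sample 1 and 1.69 without sample 2. SHMT2 (ENSG00000182199), the mitochondrial enzyme, was steadier, with 74.4 and 75.5 CPM in WT NPCs at passage 2 and 79.0 and 80.0 CPM in dKO NPCs. It was at 75.2 and 73.6 CPM in WT and at 78.4 and 70.5 CPM in dKO NPCs at passage 4, where the samples overlapped. At D28 it was at 62.9 and 59.9 CPM in WT and at 84.9 and 119.5 CPM in dKO cells, a log2 difference of 0.74 ± 0.14 that was 0.48 without dKO-D28 sample 2.

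MTHFD2 (ENSG00000065911) was lower in WT than in dKO samples at each stage. It was at 50.1 and 60.1 against 68.7 and 84.9 CPM at passage 2, at 29.4 and 26.6 against 47.3 and 48.3 CPM at passage 4, and at 30.0 and 28.0 against 54.6 and 60.99 CPM at D28. No WT sample reached a dKO sample of the same stage, and the log2 differences were 0.46 ± 0.17, 0.78 ± 0.15 and 1.00 ± 0.14, the last 0.93 without dKO-D28 sample 2. MTHFD1L (ENSG00000120254) had the same order, with 29.5 and 39.6 against 42.8 and 56.4 CPM at passage 2 and 22.1 and 22.1 against 42.9 and 34.5 CPM at passage 4. At D28 it was at 21.4 and 25.3 CPM in WT and at 29.3 and 49.8 CPM in dKO cells, and its D28 difference of 0.77 ± 0.21 was 0.33 without dKO-D28 sample 2. Some exonic bases of MTHFD2 (14.1%) and SHMT2 (8.38%) lie opposite exons of other genes in GENCODE v44, and whether counting used the strand is not given in the sources used here, so reads of both strands there cannot be told apart.

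ASNS and CHAC1 were too low to compare. ASNS (ENSG00000070669) had 0 to 21 counts in a sample and 75 in all 12, and 49.3% of its exonic bases in GENCODE v44 are shared with a same-strand lncRNA gene, which makes its count uncertain. In NPCs at passage 2, 2 of 4 libraries had 0 ASNS counts, which allows up to 3.96 CPM in WT sample 1 and 2.24 CPM in dKO sample 1. CHAC1 (ENSG00000128965) had 3 to 39 counts and lay between 2.22 and 6.23 CPM. WT and dKO samples of both genes overlapped at passage 4 and at D28. With the minimum lowered to 1 count in any sample, the log2 difference of CHAC1 was -1.01 ± 0.73 at passage 2, 0.36 ± 0.45 at passage 4 and 0.06 ± 0.39 at D28, each smaller than 2 SE. Both carry the composite element shown above, as do BCAT1 and MTHFD1L, and the 4 genes spanned group means from 0.35 CPM (ASNS, dKO NPCs at passage 2) to 309 CPM (BCAT1, WT NPCs at passage 2).

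Pairs of enzymes that do related work were compared within each sample, per kb of exon, so that the ratio does not depend on library scaling. BCAT2, the mitochondrial branched-chain aminotransferase, was the reference for BCAT1. The ratio of BCAT1 to BCAT2 was 3.69 and 3.17 in WT NPCs at passage 2, 0.95 and 0.91 at passage 4 and 0.37 and 0.37 in WT-D28. In dKO cells it was 2.92 and 2.76, 1.72 and 1.94, and 3.84 and 4.03. The ratio was thus above 1 in every dKO sample and below 1 in the 4 later WT samples. The ratio of SHMT2 to SHMT1 was 11.6 and 7.61 in WT-D28 and 6.11 and 6.33 in WT NPCs at passage 4, against 3.03 to 4.43 in the other 8 samples. The ratio of PSAT1 to PHGDH was 9.46 and 11.4 in WT NPCs at passage 4, against 3.04 to 5.32 in the other 10 samples. Lengths are of all annotated exons of a gene, 9187 bases for PHGDH and 2206 for PSAT1, and may exceed those of the expressed mRNAs. Ratios can thus be compared between samples but do not say which mRNA of a pair was more abundant.

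**Figure D1:**
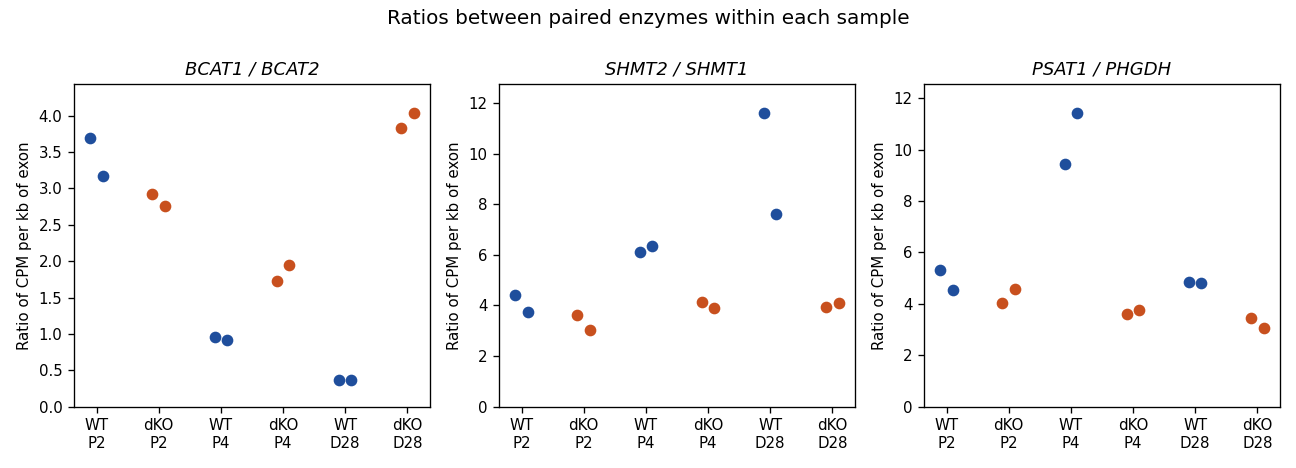
The y axes plot, from 0, the ratio of CPM per kb of exon of a pair of enzymes in each of the 12 samples, by group on the x axis (blue, WT; orange, dKO). The ratio of BCAT1 to BCAT2 was below 1 in the 4 WT samples at P4 and D28, that of SHMT2 to SHMT1 was highest in WT D28, and that of PSAT1 to PHGDH in WT P4.

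Calls at a Benjamini-Hochberg adjusted p below 0.05 and a fold change above 2 are counted here only to place the 8 fitted genes, and nothing is read from them because these contrasts chose the genes. Between genotypes, 0 of 8 were called at passage 2, where 1.48% of all 13454 genes were (0.981% higher and 0.498% lower in dKO). At passage 4, BCAT1 was called higher (11.0% of all genes) and PSAT1 lower (11.1%), and 22.0% of all genes were called in either direction. At D28, BCAT1, PHGDH, SHMT1 and MTHFD2 were called higher (12.4% of all genes) and none lower (11.7%), and 24.1% of all genes were called in either direction. In WT cells, BCAT1 and MTHFD2 were called lower from passage 2 to passage 4 (8.93% of all genes) and none higher (9.57%), with 18.5% of all genes in either direction. BCAT1 and SHMT1 were called lower in WT cells from passage 2 to D28 (11.3% of all genes) and none higher (12.3%), with 23.5% in either direction. In dKO cells none was called from passage 2 to passage 4, where 7.98% of all genes were (3.61% higher and 4.37% lower), or from passage 2 to D28, where 2.50% of all genes were called higher and 2.50% lower. The change up to D28 differed between genotypes for BCAT1, PHGDH, PSAT1 and SHMT1 with a higher value in dKO (10.7% of all genes), against 9.48% with a lower value and 20.2% in all. The change up to passage 4 differed for BCAT1, again higher in dKO (7.61% of all genes), against 7.71% lower and 15.3% in all. PSAT1 at passage 4 (-1.01), MTHFD2 at D28 (1.00), MTHFD2 in WT cells from passage 2 to passage 4 (-1.01) and the differing change of PSAT1 up to D28 (1.02) lay just past the threshold of 1 on the log2 scale. The last was 0.59 with GC and length offsets and 0.82 without dKO-D28 sample 2. Samples of the genotypes did not overlap for 6 of the 10 genes at passage 2, 6 of 10 at passage 4 and 7 of 10 at D28, against 48.3%, 77.5% and 76.9% of all fitted genes. The median over the 8 fitted genes was 0.56 at passage 4 and 0.90 at D28 (log2, dKO over WT), against 0.020 and 0.0026 over all genes. Nothing is read from these medians either, since the genes were chosen with their values known.

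**Figure D2:**
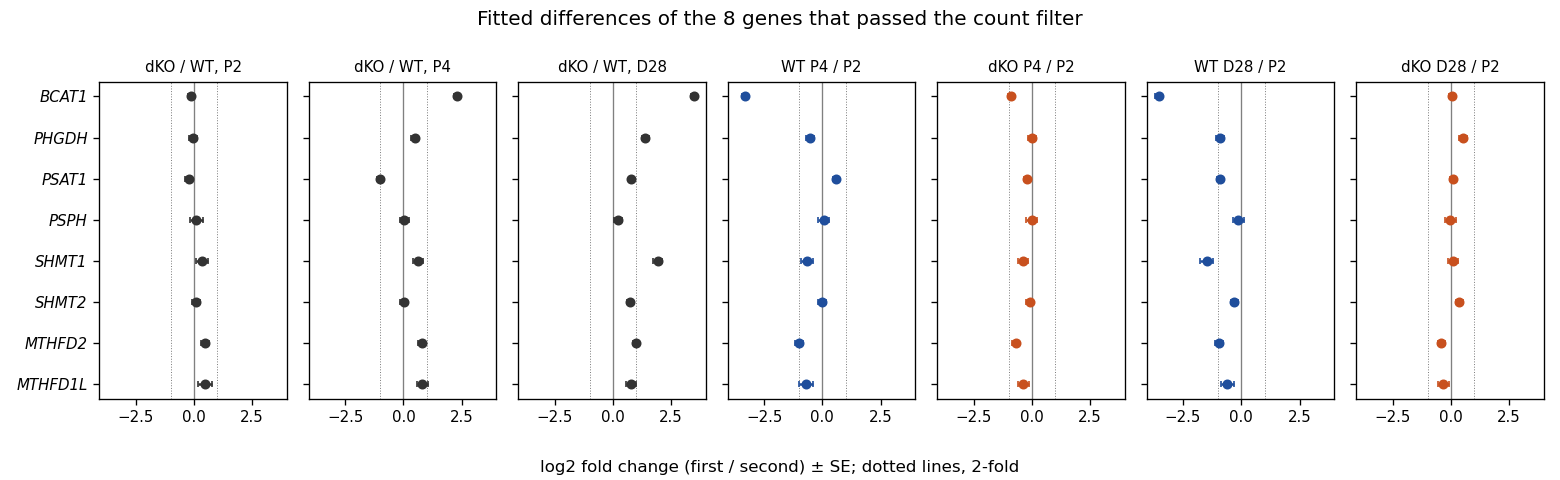
Points are fitted log2 fold changes (x axis, first over second group) and bars their SE for the 8 genes that passed the count minimum (y axis), with dotted lines at a 2-fold change. BCAT1 stands at 2.31 and 3.49 between genotypes at P4 and D28 and at -3.32 and -3.55 in WT cells over time, while all 8 points of dKO D28 over P2 lie within the 2-fold lines.

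The genes were correlated with each other on log2(CPM + 1) over the 12 samples, which share group structure and depth differences, so the values describe likeness only. BCAT1 was most like MTHFD2 (Pearson's r = 0.93) and SHMT1 (0.89), and PHGDH was most like SHMT1 (0.91) and SHMT2 (0.88). MTHFD2 and MTHFD1L had r = 0.90. PSAT1 stood apart, with r = 0.08 to BCAT1, 0.28 to PHGDH and -0.02 to MTHFD2. The enzymes of the same linear pathway, PHGDH, PSAT1 and PSPH, had r between 0.26 and 0.36.

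Over all fitted genes, those most like BCAT1 were MAN1A1, a Golgi mannosidase (r = 0.99), ENOSF1 (0.99), the Wnt pathway repressor TCF7L1 (0.99), the RNA-binding protein LIN28A (0.99) and the zinc finger factor PLAG1 (0.99). LIN28A, a gene of pluripotent and early progenitor cells, was at 86.0 and 82.8 CPM in WT NPCs at passage 2 and at 0.99 and 0.51 CPM at passage 4. In dKO cells it was at 30.9 and 33.3 CPM at passage 4 and at 31.7 and 79.0 CPM at D28. PLAG1 was at 86.0 and 67.4 CPM in WT NPCs at passage 2, at 4.74 and 4.27 CPM in WT-D28 and at 59.4 and 53.0 CPM in dKO-D28. Like BCAT1, both were low in the 4 later WT samples alone. ENOSF1 lies opposite TYMS, and reads in any bases that exons of both share cannot be told apart without strand. The extent of such bases was not measured. Most like PSAT1 were the homeobox factor LHX2 (0.98), glutamine synthetase GLUL (0.98), ZNF770 (0.97), SIPA1L1 (0.96) and TENM4 (0.96). For CHAC1, no gene exceeded 0.81, at counts too sparse to read.

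**Figure D3:**
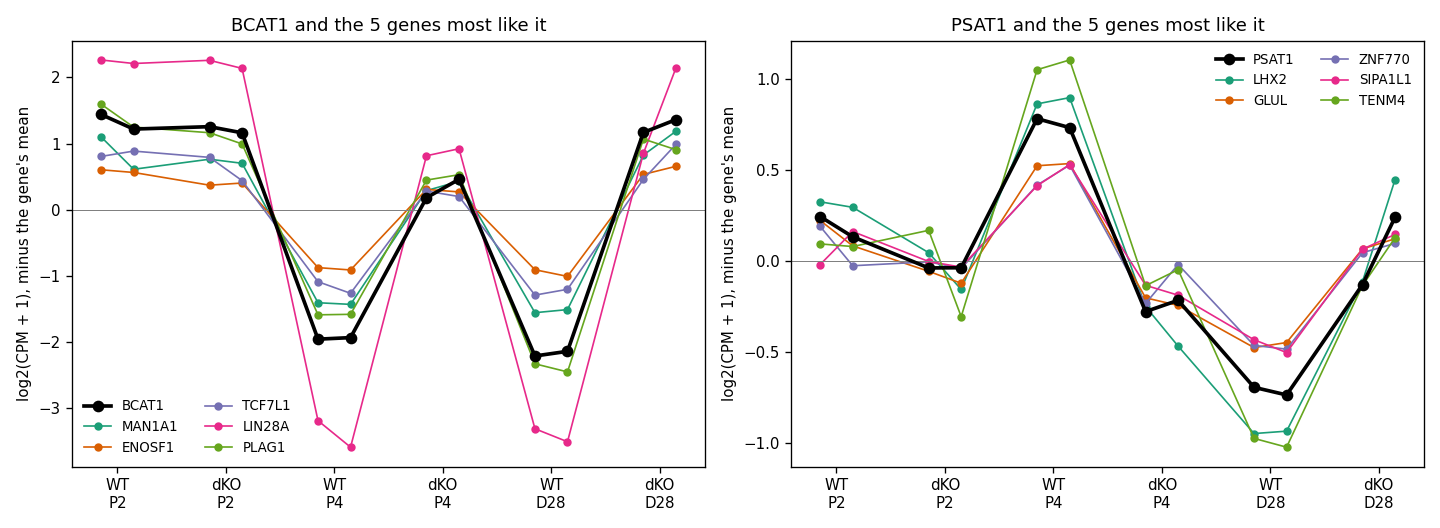
The y axes plot log2(CPM + 1) minus each gene's mean over the 12 samples (x axis, by group) for BCAT1 and for PSAT1 (black) and the 5 fitted genes with the highest Pearson's r to each. The BCAT1 group is lowest in WT P4 and WT D28, with LIN28A the deepest, and the PSAT1 group is highest in WT P4 and lowest in WT D28.

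Among the other genes of the pathway lists, of which 149 of 179 were fitted, few differed between genotypes at passage 2. SLC7A8 (LAT2), a transporter of neutral amino acids, was higher in dKO NPCs, at 39.2 and 50.8 against 10.3 and 16.9 CPM in WT (log2 1.65 ± 0.30, adjusted p = 0.00685, edgeR's quasi-likelihood test here and below). The urea cycle enzyme ASS1 was also higher in dKO NPCs (1.36 ± 0.34, adjusted p = 0.0387), a call lost with the GC and length correction (adjusted p = 0.0527). The SLC7A8 call was lost in 2 of 12 fits without a library, without WT NPC sample 1 (1.42) and without dKO NPC sample 2 at passage 2 (1.45), and the ASS1 call in 7 of 12. The 2 of 149 genes called compare with 1.48% of all genes.

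At passage 4, 15 of the 149 genes were called higher and 5 lower in dKO than in WT NPCs (13.4% called, against 22.0% of all genes). At D28, 22 were called higher and 6 lower (18.8%, against 24.1%). The lists as a whole were thus not called more often than other genes. The median log2 difference over the 149 genes was 0.19 at passage 4 and 0.25 at D28. Without dKO-D28 sample 1 or sample 2, 36 or 23 genes were called at D28. The list of serine and glycine supply held 3 called genes of 22 at passage 4 (13.6%, against 22.0% of all genes) and 7 of 22 at D28 (31.8%, against 24.1%).

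The neutral amino acid transporters SLC1A4 and SLC1A5 of that list moved in opposite directions. SLC1A4 (ASCT1), which carries serine and alanine, was at 21.8 and 29.3 CPM in WT and at 31.8 and 30.6 CPM in dKO NPCs at passage 2. It rose in WT cells to 110 and 114 CPM at passage 4 and to 135 and 126 CPM at D28, and was at 19.1 and 17.9 CPM and at 25.0 and 23.4 CPM in dKO cells. No dKO sample came above 31.8 CPM. SLC1A4 was lower in dKO cells by log2 -2.59 ± 0.14 at passage 4 (adjusted p = 5.37e-10) and -2.43 ± 0.13 at D28 (adjusted p = 4.32e-10).

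SLC1A5 (ASCT2), which carries glutamine as well as serine, had the opposite course. It was at 74.4 and 93.8 CPM in WT and at 81.2 and 77.2 CPM in dKO NPCs at passage 2. In WT cells it fell to 13.9 and 14.0 CPM at passage 4 and was at 21.6 and 19.6 CPM at D28, against 57.9 and 52.9 CPM and 45.6 and 88.7 CPM in dKO cells. It was higher in dKO cells by 2.00 ± 0.28 at passage 4 (adjusted p = 8.36e-05) and by 1.72 ± 0.24 at D28 (adjusted p = 4.87e-05). Each of these 4 genotype calls on SLC1A4 and SLC1A5 held in every alternative run and without any one library. In the same list at D28, SERINC5 (1.81 ± 0.13) and GLDC (1.60 ± 0.16), a part of the glycine cleavage system, were higher in dKO than in WT cells. The mitochondrial serine carrier family member SFXN3 was lower (-1.57 ± 0.25). Adjusted p was 1.43e-08, 3.77e-07 and 0.000132 in this order. Without dKO-D28 sample 1 or sample 2, SFXN3 was at -2.23 or -1.06 and SLC1A5 at 2.13 or 1.16.

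In the folate cycle list, 3 of 16 genes were called at passage 4 (18.75%, against 22.0% of all genes) and 5 of 16 at D28 (31.25%, against 24.1%). SLC19A1, the reduced folate carrier, was at 36.0 and 30.7 CPM in WT and at 180 and 168 CPM in dKO NPCs at passage 4, and at 29.1 and 26.9 against 120 and 174 CPM at D28. The log2 difference was 2.40 at both (SE 0.17 and 0.15, adjusted p = 8.44e-09 and 3.12e-09). TYMS, thymidylate synthase, was higher in dKO than in WT cells at D28 (184 against 51.0 mean CPM, log2 1.86 ± 0.12, adjusted p = 2.78e-09). In WT cells TYMS had fallen from 177 mean CPM at passage 2. The limit given above for bases shared with ENOSF1 applies to TYMS too. The mitochondrial formyltetrahydrofolate dehydrogenase gene ALDH1L2 was lower in dKO than in WT cells at both points, by 1.59 ± 0.30 and by 1.87 ± 0.28 on the log2 scale (adjusted p = 0.000341 and 2.62e-05). The D28 value was -2.56 or -1.34 without dKO-D28 sample 1 or sample 2. In WT cells ALDH1L2 had risen from 8.07 mean CPM at passage 2 to 22.6 at passage 4 and 26.2 at D28. MTHFD1, the cytosolic partner of MTHFD2 and MTHFD1L, was at 46.4 and 46.2 CPM in WT-D28 and at 71.8 and 109 CPM in dKO-D28 (log2 0.98 ± 0.17, adjusted p = 0.00023), just under the 2-fold minimum, and at 1.25 or 0.64 without dKO-D28 sample 1 or sample 2. The related gene MTHFD2L lay between 10.9 and 23.1 CPM in all 12 samples.

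**Figure D4:**
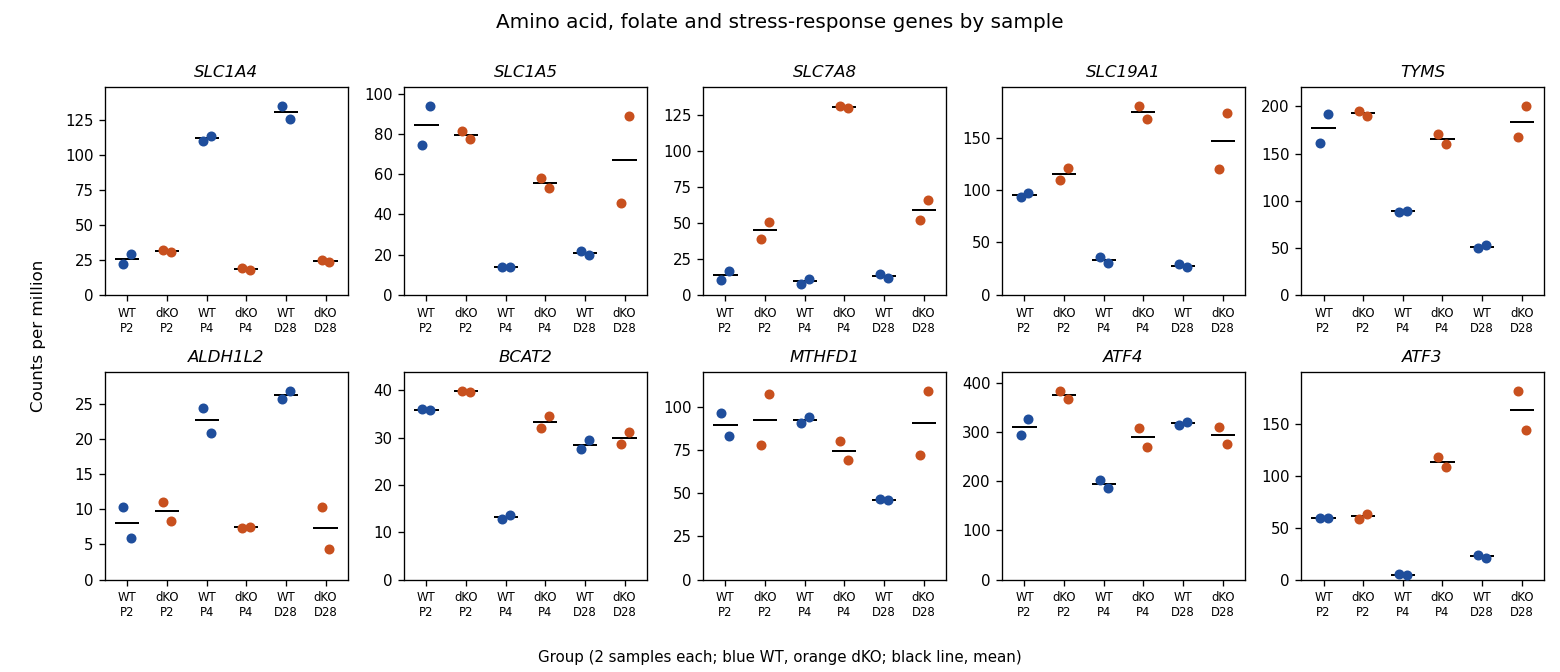
Each panel plots CPM (y axis, from 0) of a gene that is not one of the 10, in the 12 samples by group on the x axis (blue, WT; orange, dKO; black line, mean). SLC1A4 and ALDH1L2 were highest in WT P4 and WT D28, where SLC1A5, SLC19A1 and ATF3 were lowest, while ATF4 ranged from 187 to 383 CPM.

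In the purine synthesis list, 3 of 13 genes were called higher in dKO than in WT cells at D28 and none lower (23.1%, near the 24.1% of all genes called). ATIC uses a folate one-carbon unit, while PFAS and GMPS use glutamine. The log2 differences were 1.38 ± 0.14 for ATIC, 1.37 ± 0.20 for PFAS and 1.08 ± 0.13 for GMPS, with adjusted p = 3.75e-07, 3.76e-05 and 3.78e-06. PFAS (0.91) and GMPS (0.99) lost the call without dKO-D28 sample 2. In WT cells, the same 3 genes fell from passage 2 to D28, by 1.05 ± 0.17, 1.51 ± 0.23 and 1.19 ± 0.15 on the log2 scale (adjusted p = 9.19e-05, 0.000102 and 7.91e-06), ATIC with a change under 2-fold in 4 of 8 alternatives. In the methionine cycle list, MTAP, which salvages methylthioadenosine (1.54 ± 0.13, adjusted p = 5.70e-08), and MAT2B, a subunit of methionine adenosyltransferase (1.33 ± 0.17, adjusted p = 4.78e-06), were higher in dKO than in WT cells at D28. These 3 purine genes were not called between genotypes at passage 4, where only ADSS1 of that list was called higher in dKO NPCs (1.87 ± 0.29, adjusted p = 6.48e-05).

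Of the branched-chain amino acid list, BCAT2 was at 12.9 and 13.7 CPM in WT and at 32.0 and 34.5 CPM in dKO NPCs at passage 4 (log2 1.32 ± 0.17, adjusted p = 7.49e-06). At D28 it was at 27.6 and 29.4 against 28.6 and 31.2 CPM (0.07 ± 0.14, adjusted p = 0.68). BCAT2 was thus called higher in dKO cells at passage 4 and not at D28. SLC7A8 was higher in dKO than in WT cells by 3.78 ± 0.21 at passage 4 and by 2.17 ± 0.18 at D28 (adjusted p = 8.63e-10 and 6.00e-08). The phosphatase PPM1K, which activates the branched-chain ketoacid dehydrogenase, was lower in dKO than in WT NPCs at passage 4 (-2.07 ± 0.32, adjusted p = 0.000245). In the whole list, 4 of 24 genes were called at passage 4 (16.7%, against 22.0% of all genes) and 3 of 24 at D28 (12.5%, against 24.1%).

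ATF4 mRNA itself differed by less than 2-fold between genotypes. In WT NPCs it fell from 309 to 194 mean CPM between passage 2 and passage 4 (log2 -0.68 ± 0.11, adjusted p = 0.00022, edgeR, under the 2-fold minimum). It was at 202 and 187 CPM in WT and at 308 and 270 CPM in dKO NPCs at passage 4 (log2 0.58 ± 0.11, adjusted p = 0.000345, under the 2-fold minimum) and at 314 and 320 against 310 and 276 CPM at D28 (-0.11 ± 0.11, adjusted p = 0.396). In the ATF4 and integrated stress response list, 6 of 26 genes were called higher and 1 lower in dKO than in WT NPCs at passage 4 (26.9%, against 22.0% of all genes). At D28, 3 were called higher and 1 lower (15.4%, against 24.1%). The largest of the higher values in dKO over WT cells were those of ATF3, a stress-induced factor (4.57 ± 0.19 at passage 4 and 2.86 ± 0.14 at D28, adjusted p = 5.53e-11 and 1.48e-10), and the secreted glycoprotein gene STC2 (3.33 ± 0.34 and 2.68 ± 0.26, adjusted p = 8.67e-07 and 3.18e-07). DDIT3, which encodes CHOP, was at the 2-fold minimum at passage 4 (1.00 ± 0.26, adjusted p = 0.00509), and 5 of 8 alternatives put it below. TRIB3, a target of ATF4 and CHOP, rose in WT cells from 7.88 to 17.2 mean CPM between passage 2 and D28 (1.11 ± 0.30, adjusted p = 0.00658), a call lost without WT NPC sample 2 at passage 2. Of 18 aminoacyl-tRNA synthetase genes, 0 were called between genotypes at passage 2, 4 or D28 by edgeR, against 1.48%, 22.0% and 24.1% of all genes. With no minimum fold, 0, 7 and 9 had an adjusted p below 0.05, and 4, 8 and 10 an unadjusted p below 0.05. The shares of all genes at these looser cuts are not given here. In the asparagine, glutamine and proline list ASS1 was higher in dKO than in WT cells at passage 4 (1.66 ± 0.27, adjusted p = 8.16e-05). In the glutathione list OPLAH was higher in dKO than in WT cells at D28 (2.37 ± 0.34, adjusted p = 2.30e-05).

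Over time in WT cells, 5 of the 149 genes rose and 16 fell from passage 2 to passage 4 (14.1%, against 18.5% of all genes), and 6 rose and 20 fell to D28 (17.4%, against 23.5%). In dKO cells, 4 rose and 3 fell to passage 4 (4.70%, against 7.98%) and 2 rose and 0 fell to D28 (1.34%, where 2.50% of all genes rose and 2.50% fell), a count of 2 that was 7 without dKO-D28 sample 1 and 3 without sample 2. In WT cells SLC1A4 rose (2.08 ± 0.17 to passage 4 and 2.30 ± 0.16 to D28), and SLC1A5 (-2.62 ± 0.31 and -2.06 ± 0.27) and SLC19A1 (-1.53 ± 0.19 and -1.77 ± 0.18) fell, each with adjusted p of at most 5.34e-05. BCAT2 fell to passage 4 (-1.44 ± 0.20, adjusted p = 3.89e-05). In dKO cells ATF3 (1.42 ± 0.15, adjusted p = 1.05e-05) and DDIT4 (1.26 ± 0.20, adjusted p = 0.000515) were the genes that rose to D28, DDIT4 with 0.98 and no call without dKO-D28 sample 2.

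Marker genes of cell types moved with these results only in part. The summed level of 6 cycling-cell genes was 330 to 342 CPM in WT-D28 and 1198 to 1478 CPM in dKO-D28, so it moved with the D28 differences of BCAT1, PHGDH, SHMT1, TYMS and the purine genes. At passage 4 it ran the other way, with 1341 to 1538 CPM in WT and 898 to 925 CPM in dKO NPCs, while BCAT1 was lower in WT. The summed level of 8 neuron genes was 3478 to 4645 CPM in WT NPCs at passage 4 and WT-D28 and 605 to 1289 CPM in the other 8 samples, the same split of samples as for BCAT1 and SLC1A5. The 6 astrocyte genes summed to 2087 to 2294 CPM in WT NPCs at passage 4 and to 272 to 771 CPM elsewhere, the group in which PSAT1 was highest. SLC1A3 alone made up most of that sum, with a mean of 1841 CPM in WT and 17.9 CPM in dKO NPCs at passage 4, while GJA1 of the same list ran the other way, with 89.5 and 614 CPM. The 8 mesenchyme genes summed to 1739 to 1753 CPM in dKO NPCs at passage 4, to 901 to 1093 CPM in dKO NPCs at passage 2 and to 153 to 412 CPM elsewhere. The 5 neural crest genes reached 110 CPM in dKO-D28 sample 2 and at most 35.5 CPM elsewhere. Of the 4 pluripotent-cell genes, POU5F1 and NANOG were at 0 in all 12 samples, and the sum was 0.60 to 1.65 CPM in later WT samples and 33.9 to 128 CPM in the others. The 7 neural progenitor genes, of which VIM and NES were most of the sum, stood at 3344 to 7326 CPM in all groups. PAX6 of that list was at 11.7 and 11.5 CPM in WT-D28 and between 175 and 351 CPM in the other 10 samples, so it was low in WT-D28 as BCAT1 was but not in WT NPCs at passage 4. The part of these cell types in the results was not tested, and in bulk samples fewer cells of a type and less RNA per cell cannot be told apart.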

How the data were processed

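RNA from 12 samples was sequenced, 2 for each of 6 groups, and groups and replicate numbers came from the labels. No batch is named in the labels, and one that ran with a group could not be told apart from it. Per the study's methods and the submitters' processing notes, the authors mapped reads to hg38 with HISAT2 2.0.4, sorted them with SAMtools 1.3.1 and counted them with HTSeq 0.6.0. The annotation release and strand setting are not given in the sources used here. The authors deposited these raw counts per Ensembl gene, before the low-count filter, the GC and length normalization and the DESeq 1.18.1 test of their own analysis. Of 58302 genes, 57532 were found in GENCODE v44 (GRCh38), which gave symbols, lengths and coordinates.

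In R 4.3.3, genes that averaged 20 counts or more were fitted with edgeR 4.0.16 (TMM, robust quasi-likelihood, 6 group means in a single fit), and p-values were Benjamini-Hochberg adjusted over 13454 genes. A gene was called at an adjusted p below 0.05 and a fold change above 2. SE is the log2 fold change divided by the root of its F statistic. Time-course differences were contrasts of the same fit. The fit was checked on simulated counts. With 2 samples per group, an exact two-sided permutation test of a single value cannot go below 0.333. The 10 genes, the 9 pathway lists and 7 marker lists were chosen with earlier results of these data known. Named were the 10 genes, KDM6A, KDM6B, BCAT2, MTHFD1, MTHFD2L, CHAC2, ATF4, DDIT3, TRIB3, up to 3 called rises and falls for each list and comparison, and the 5 genes of highest Pearson's r to BCAT1, PSAT1 and CHAC1. CHAC2 lay under the count minimum, with a mean of 7.25 counts. Alternatives were the study's unadjusted p, no minimum fold, DESeq2 1.42.0, RLE factors, other count minimums, only the samples of a comparison, GC and length offsets, a replicate block and leaving out each sample.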

Additional observations from a re-analysis of the deposited data

Results flagged for a closer look

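These results were picked because a change over time differed between WT and dKO cells. For genes outside the 10, the difference of the changes was tested in the edgeR fit with adjustment over all genes, and it is given on the log2 scale as the dKO change minus the WT change. From passage 2 to D28 it was 2.89 ± 0.60 for OPLAH (adjusted p = 0.00162), 2.82 ± 0.23 for ATF3 (adjusted p = 2.85e-07) and 2.13 ± 0.24 for SLC19A1 (adjusted p = 7.19e-06). It was -2.67 ± 0.24 for SLC1A4 (adjusted p = 9.67e-07), -2.54 ± 0.47 for SFXN3 (adjusted p = 0.00128) and -2.53 ± 0.75 for GLS2 (adjusted p = 0.0177). From passage 2 to passage 4 it was 4.53 ± 0.28 for ATF3 (adjusted p = 5.57e-08), 2.72 ± 0.49 for STC2 (adjusted p = 0.000793), 2.31 ± 0.45 for ADSS1 (adjusted p = 0.00158) and 1.18 ± 0.26 for BCAT2 (adjusted p = 0.00343). It was -2.83 ± 0.25 for SLC1A4 (adjusted p = 1.09e-06), -1.95 ± 0.58 for ALDH1L2 (adjusted p = 0.0243) and -1.75 ± 0.34 for SLC7A11 (adjusted p = 0.00155). GLS2 lost the call with DESeq2 and without WT NPC sample 1, WT NPC sample 2 or dKO NPC sample 2 at passage 2. ADSS1 lost it without WT NPC sample 2 at passage 2, and ALDH1L2 without that library and 4 others.

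Among the 10 genes, all WT samples moved one way and all dKO samples the other from passage 2 to D28 for PHGDH (1.43 ± 0.24), SHMT2 (0.66 ± 0.23) and CHAC1 (1.08 ± 0.83), and from passage 2 to passage 4 for PSAT1 (-0.78 ± 0.18) and CHAC1 (1.37 ± 0.86). Over all fitted genes, WT samples of the 2 stages did not overlap for 77.5% to D28 and 69.5% to passage 4. For dKO samples these shares were 47.1% and 64.4%. The share of all genes with opposite moves was not counted, so nothing is read from the number of genes listed here. No p is given for these differences, because the genes were chosen with these values known. The D28 value was 1.70 or 1.14 for PHGDH and 0.90 or 0.40 for SHMT2 without dKO-D28 sample 1 or sample 2. The CHAC1 values come from the fit with a minimum of 1 count and rest on 3 to 39 counts.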

How the results depend on the processing

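Counts of called pathway genes were recomputed under 10 alternatives. With at least 10 counts in every sample, the count between genotypes was 0 by edgeR at passage 2 (2 in the fit reported above) and 10 at passage 4 (20), in WT cells 17 to D28 (26) and 13 to passage 4 (21), and for the differing change to passage 4 12 (19), where fewer genes were fitted. With GC and length offsets, alone or with the replicate block, 1 gene was called at passage 2. Without a minimum fold the counts in the same comparisons were 75 at passage 4, 81 at D28, 74 and 70 in WT cells to D28 and passage 4, 5 and 33 in dKO cells, and 49 and 33 for the differing changes to D28 and passage 4. All other counts stayed within 1.5 times, by the study's unadjusted p and by DESeq2 too. Leaving out a sample gave 0 to 2 genes between genotypes at passage 2 (0 without WT NPC sample 1), 18 to 21 at passage 4 and 23 to 36 at D28, 24 to 29 and 15 to 23 in WT cells to D28 and passage 4, 2 to 7 and 5 to 7 in dKO cells (7 to D28 without dKO-D28 sample 1), and 23 to 36 and 12 to 24 for the differing changes (12 to passage 4 without WT NPC sample 2 at passage 2). Same-numbered samples deviated together by a correlation of -0.058 to 0.194 over 15 pairs of groups, so numbers do not pair samples. The replicate block gave 19 genes at passage 4 and 26 at D28, and lost the calls of SLC7A11 at passage 4 and CEBPB at D28. Of 117 results on single genes outside the 10, 73 kept direction and call in every alternative and every fit without a library, and 21 changed in an alternative. ATF4 at D28, -0.11, was 0.011 with GC and length offsets and 0.0053 with the block as well, and its cause was not tested. Of 72 differences of the 8 fitted genes, no called one changed sign. GC and length offsets moved 22 of them by more than the replicate SD, with BCAT1 at 2.90 (passage 4) and 4.27 (D28). Depth limits the passage 2 comparisons, ASNS and CHAC1 most.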

Other observations

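Other genes of the lists changed over time within a genotype, and the difference between genotypes is not given here. In WT cells, VLDLR, a lipoprotein receptor gene of the stress response list, rose from 26.7 to 83.5 mean CPM between passage 2 and D28 (log2 1.64 ± 0.19, adjusted p = 3.83e-06, edgeR). MTAP fell from passage 2 to passage 4 (60.0 to 27.7 mean CPM, -1.13 ± 0.16, adjusted p = 6.10e-05). PCK2, the mitochondrial phosphoenolpyruvate carboxykinase, fell over the same interval, from 11.3 to 2.93 mean CPM (-1.90 ± 0.40, adjusted p = 0.0015). In dKO NPCs, SLC7A11, the cystine importer, fell from 35.8 to 13.7 mean CPM between passages (-1.39 ± 0.23, adjusted p = 0.000554), as did PRPS2, which makes the ribose donor of purine synthesis (20.7 to 8.27 mean CPM, -1.33 ± 0.27, adjusted p = 0.00254). SERINC5 rose in dKO NPCs between passages, from 51.9 to 120 mean CPM (1.21 ± 0.15, adjusted p = 3.84e-05), and SLC7A8 from 45.0 to 131 mean CPM (1.54 ± 0.19, adjusted p = 5.34e-05). In WT NPCs between passages, SERINC5 rose too (1.18 ± 0.17, adjusted p = 6.63e-05) and PRPS2 fell too (-1.26 ± 0.29, adjusted p = 0.0031).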
